A study of Homo sapiens with 4 samples.

Results

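The mitochondrial ribosomal protein genes were examined in HepG2 cells with and without ZCCHC4. The members were the genes whose Entrez number maps to an NCBI symbol starting with MRPL or MRPS followed by a number. Of the 16658 genes in the expression table, 77 were members, 49 named MRPL for the large subunit of the mitochondrial ribosome and 28 named MRPS for the small subunit. RefSeq holds 190 genes whose symbols fit this pattern. The other 113 are pseudogenes or long non-coding RNAs, and none of them was listed in the table. All 77 members code for protein, and all 77 passed the filter on low values, an FPKM of at least 1 in at least 2 libraries (FPKM is a level in mapped fragments, scaled to transcript length and library size). The rule reads gene symbols and no measured value.

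Mitochondria translate the few messenger RNAs of their own genome on a separate ribosome, the mitoribosome. Its ribosomal RNAs are transcribed inside the organelle, whereas all of its proteins are encoded in the nucleus, made in the cytosol and imported. The proteins it makes are core subunits of the respiratory chain and of ATP synthase, so the mitoribosome is needed for oxidative phosphorylation. Some of its proteins belong to families shared with bacterial ribosomes and others exist in mitochondrial ribosomes without a bacterial counterpart. ZCCHC4 is a methyltransferase that places an N6-methyladenosine mark on the 28S rRNA of the cytosolic ribosome, which is a different particle.

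WT cells and ZCCHC4 KO1 cells, with 2 RNA-seq libraries each, were grown untreated in plates to near confluence. HepG2 is a human cell line derived from a liver cancer. ZCCHC4 KO1 was 1 knockout line made with CRISPR/Cas9, so a difference between the groups is a difference between these lines of cells. No label says that the libraries of a group came from separate cultures, and the p-values therefore measure only the spread between these libraries, which may be technical. The question was which transcripts differ between cells with and without ZCCHC4.

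The targeted gene was measured first. ZCCHC4 (chr4:25312774-25370383) was at 7.22 and 5.44 FPKM in WT cells and at 1.08 and 2.29 FPKM in ZCCHC4 KO1 cells, values here and below being in the order of replicate 1 and replicate 2. It was lower in both knockout libraries, with a log2 fold change of −1.48 ± 0.29 (SE, 2 libraries per group) on the log2(FPKM + 1) scale and an adjusted p of 0.0448 (limma, Benjamini-Hochberg over 10726 genes). On this scale changes of weakly expressed genes appear too small. The libraries carried little RNA of liver type. Of 15 hepatocyte markers 8 were listed, 0 reached an FPKM of 1 in all 4 libraries, and their summed FPKM was 0.13 to 0.26 per library. AFP, the fetal liver protein that HepG2 cells are known for, was listed at 0 in 3 libraries and at 0.05 FPKM in WT replicate 2. Among 4 keratins, KRT7 was at 2026 to 3078 FPKM and KRT8 and KRT18 were also abundant, whereas KRT19 did not exceed 0.11 FPKM. Both groups were alike in lacking the hepatocyte markers, and the libraries are called by their labels here.

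Sequence around the start sites was a feature the member rule did not use. RefSeq start-site windows (250 bases before to 50 after the start, GRCh38.p14) were held for 69 of the 77 members and for 8827 of the tested genes. The letters AAGATGGC, a core of the motif of the transcription factor YY1, were present on either strand in the windows of 21 members, 30.4% of those with a window, and in 7.13% of all windows. The letters CGGAAG, a core of the motif of ETS factors, the family of GABPA, were present in 38 members, 55.1%, and in 40.8% of all. The AAG that ends the ETS-type letters can also begin the YY1-type letters. Of 22 YY1-type matches, 18 lay on the strand of the gene and 16 of these began 7 to 36 bases after the start site. In 13 members the ATG inside the match is an annotated start codon, so the same letters also open the coding sequence. The windows below are shown because they hold the YY1-type letters in members whose levels are described later. The ATG inside the match is an annotated start codon in all of these windows except that of MRPL20. Each is 30 bases, 5′ to 3′ on the strand of its gene, with the YY1-type letters in capitals. The first is from MRPS24 (chr7:43869480-43869509, minus strand), the next from MRPS18A (chr6:43687764-43687793, minus), MRPS18B (chr6:30617852-30617881, plus), MRPL46 (chr15:88467362-88467391, minus), MRPL20 (chr1:1407260-1407289, minus) and MRPL50 (chr9:101398577-101398606, minus).
MRPS24: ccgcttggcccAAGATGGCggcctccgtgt
MRPS18A: gtaggtttttgAAGATGGCggccctcaagg
MRPS18B: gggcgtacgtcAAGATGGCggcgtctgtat
MRPL46: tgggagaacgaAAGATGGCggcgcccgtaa
MRPL20: ccgacccgggcAAGATGGCagcggcgctgc
MRPL50: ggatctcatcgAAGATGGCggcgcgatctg

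The ETS-type letters stood close to the start site in members with both directions of difference. Windows of MRPL33 (chr2:27771700-27771729, plus strand), MRPL58 (chr17:75012651-75012680, plus), MRPS2 (chr9:135500637-135500666, plus) and MRPS33 (chr7:141014935-141014964, minus) are shown with these letters in capitals. In MRPS33 the match is on the opposite strand and reads as CTTCCG.
MRPL33: cgggccgtgcccCGGAAGcagttgttgttg
MRPL58: ggaagcgcccgcCGGAAGcagtcgcaagac
MRPS2: cgcggatggcgaCGGAAGgggaggccgctc
MRPS33: tagagggcgggcCTTCCGggacgagggcgc

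Other promoter letters were at or below the share in all windows, or near it. The NRF1-type letters GCATGCGC were present in 6 members, 8.70%, against 6.92% of all windows. The CCAAT box was present in 33.3% of the members and 43.6% of all, the GC box GGGCGG in 60.9% and 78.8%, and the TATA box letters TATAAA in 4.35% and 7.89%. The windows of MRPS9 and MRPL57, described below, held neither YY1-type nor ETS-type letters. A match is a description of letters in a window and not of a bound site.

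The members were expressed at high levels in all 4 libraries. The median member had a mean of 72.1 FPKM, against 10.9 FPKM for the median tested gene. The lowest value of any member in any library was 5.92 FPKM, the highest was 449 FPKM, and 73 members were at 10 FPKM or more in every library. Levels spanned 50.7-fold between the highest and the lowest member mean, although the proteins are assembled into the same particle.

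At the top of the range was MRPS24, a small subunit protein of the family that lines the mRNA entry channel of ribosomes, with 342 and 398 FPKM in WT cells and 428 and 338 FPKM in ZCCHC4 KO1 cells. MRPL12, which forms the flexible stalk that recruits translation factors, was next at 252 and 291 FPKM in WT cells and 449 and 352 FPKM in ZCCHC4 KO1 cells. MRPS17, a small subunit protein that binds ribosomal RNA, was at 330.2 and 334 FPKM in WT cells and 298 and 285 FPKM in ZCCHC4 KO1 cells. The groups overlapped for MRPS24 and did not overlap for MRPL12 and MRPS17, whose differences went in opposite directions. The MRPS24 locus overlaps that of a read-through transcript with URGCP, so its reads may be shared. By gene coordinates on either strand, 17 members overlap another listed gene, among them MRPS6, MRPS18A and MRPS18C. Whether reads are shared at these places was not tested.

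At the bottom was MRPS31, a small subunit protein specific to mitochondria, with 7.42 and 6.21 FPKM in WT cells and 7.06 and 9.01 FPKM in ZCCHC4 KO1 cells. MRPL19 was at 9.85 and 6.70 FPKM in WT cells and 5.92 and 9.42 FPKM in ZCCHC4 KO1 cells. MRPL1, which forms the mobile stalk at the exit side of the large subunit, was at 12.3 and 8.04 FPKM in WT cells and 9.79 and 15.4 FPKM in ZCCHC4 KO1 cells. In each of these 3 genes the 2 groups overlapped. The order of the members was much alike in the 2 groups, with a Spearman correlation of 0.944 between the mean levels of the 77 genes in WT and ZCCHC4 KO1 cells. These points are genes of the same libraries and share their depth and transcript lengths.

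**Figure D1:**
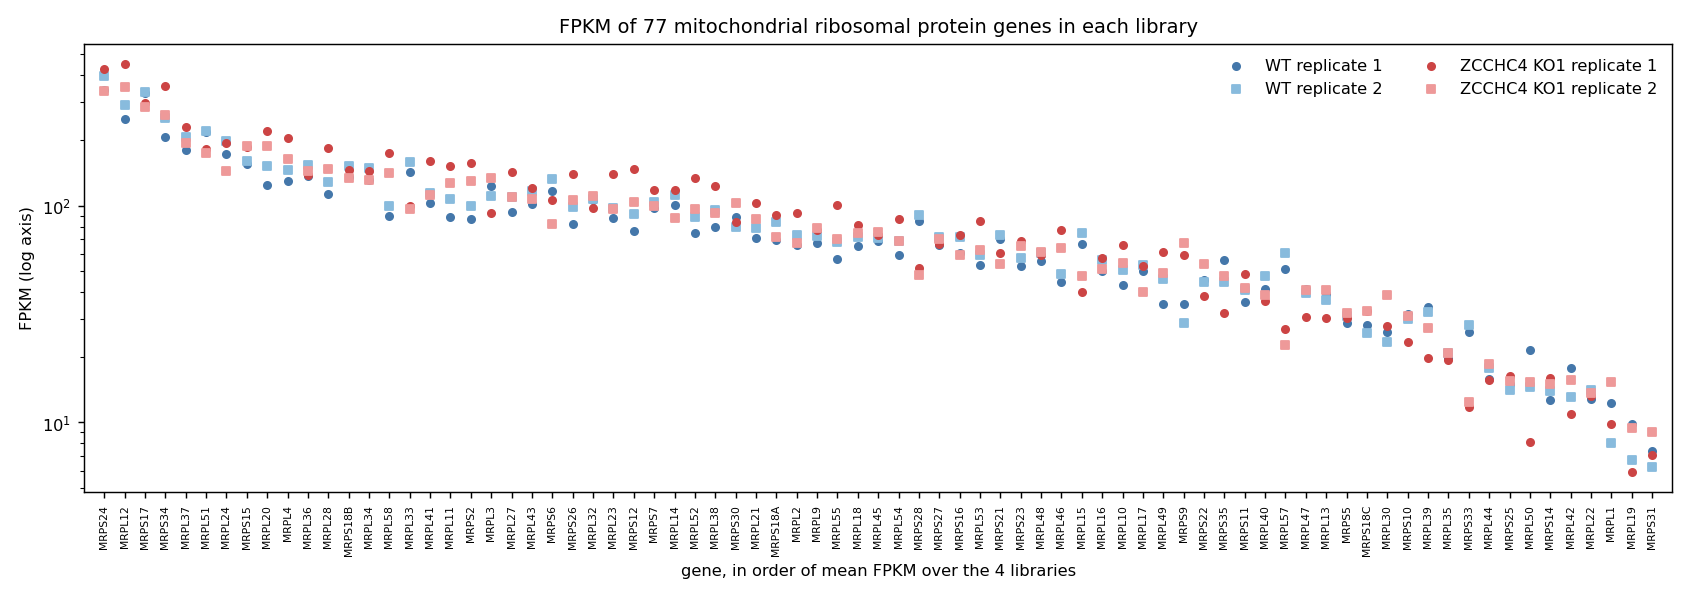
FPKM (log axis) of each of the 77 mitochondrial ribosomal protein genes in the 2 WT libraries (blue) and the 2 ZCCHC4 KO1 libraries (red), circles for replicate 1 and squares for replicate 2, ordered by the mean of the 4 libraries. Levels run from MRPS24 at a mean of 376 FPKM to MRPS31 at a mean of 7.43 FPKM, and for most genes the 4 points lie close together.

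Most of these genes kept levels within 1.5-fold of WT cells, and a few moved apart in both directions. The ratio of the mean FPKM in ZCCHC4 KO1 to that in WT cells was within 1.5-fold for 66 members, at or above 1.5 for 5 and at or below the inverse of 1.5 for 6. At an adjusted p below 0.05, 1 member rose in ZCCHC4 KO1 cells, where 1.5% of all tested genes rose, and 3 members fell, where 4.48% of all tested genes fell. In either direction 4 of 77 members, 5.19%, were called against a background of 5.98%, which is near the same share. At the thresholds the study used, a fold change of at least 2 with an adjusted p below 0.001, 0 members passed in this limma fit. Of all tested genes 2 (0.0186%) passed on the higher and 6 (0.0559%) on the lower side. The paper reports far more genes at these thresholds and names no test. Which members are among its own calls is therefore not known here. At an unadjusted p below 0.05 there were 10 higher members of 77, against a background of 8.96%, and 8 lower ones, against 13.9%. A log2 fold change of at least 1 in size was reached by 2 members, 2.60% against 4.92%. The split of 1 higher and 3 lower depended on scaling. It was 2 higher and 3 lower after median-ratio scaling, where 11% of all tested genes were called in either direction, and 8 and 5 after quantile normalization, where 11.1% were called. It was 13 and 6 after a trend with GC content was removed from each library, where 19.8% were called. The counts of all tested genes thus grew along with those of the members.

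MRPS33 (chr7:141002610-141014952), a small subunit protein found in mitochondrial but not bacterial ribosomes, was at 26.2 and 28.2 FPKM in WT cells and at 11.8 and 12.4 FPKM in ZCCHC4 KO1 cells. Both knockout libraries were below both WT libraries, and the log2 fold change was −1.11 ± 0.15 (SE) with an adjusted p of 0.0185. Around it on chromosome 7, 9 of the 20 nearest tested genes were higher and 11 were lower, with a median of −0.01 on the log2 scale. RefSeq names 4 pseudogenes of MRPS33, and reads shared with such copies are divided by estimation in RSEM, so its level is less certain. Which copies the annotation held is not given in the sources used here.

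MRPL57 (chr13:21176658-21179084), a large subunit protein specific to mitochondria, was at 51.0 and 60.3 FPKM in WT cells and at 26.9 and 22.7 FPKM in ZCCHC4 KO1 cells. It was lower in both knockout libraries, and its mean FPKM fell by 55.4%, with a log2 fold change of −1.13 ± 0.16 (SE) and an adjusted p of 0.020. Of the 20 tested genes nearest to it 15 were lower and 5 higher, and their median was −0.29. RefSeq names 8 pseudogenes of MRPL57, the same limit as for MRPS33. It names at least 1 for 41 of the members, so other levels given here share this limit.

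MRPS28 (chr8:79918717-80030259), a small subunit protein related to a bacterial family, was at 84.6 and 90.4 FPKM in WT cells and at 51.6 and 48.1 FPKM in ZCCHC4 KO1 cells. The groups did not overlap, and the log2 fold change was −0.80 ± 0.13 (SE) with an adjusted p of 0.0270. With the libraries paired by replicate number the adjusted p was 0.0693.

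MRPS9 (chr2:105038069-105099960) was the 1 member that rose. This protein of the head of the small subunit, of a family whose tail reaches the bound tRNA, was at 35.3 and 28.8 FPKM in WT cells and at 59.2 and 67.4 FPKM in ZCCHC4 KO1 cells. The mean FPKM was 97.5% higher, the groups did not overlap, and the log2 fold change was 0.96 ± 0.16 (SE) with an adjusted p of 0.0295.

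All 4 calls were lost without WT replicate 2. The log2 fold changes in that fit were 0.82 for MRPS9, −1.05 for MRPS33, −1.02 for MRPL57 and −0.75 for MRPS28. Without WT replicate 1, MRPS33 and MRPS28 were no longer called, with log2 fold changes of −1.16 and −0.85. Calls over all tested genes also became fewer in both of these fits, which leave 1 WT library. Without ZCCHC4 KO1 replicate 2 more members were called in both directions, and calls over all tested genes grew too.

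The next members in each direction did not pass the test. MRPL58, a peptidyl-tRNA hydrolase built into the large subunit that releases stalled chains, was at 90.1 and 100.1 FPKM in WT cells and 175 and 142 FPKM in ZCCHC4 KO1 cells. Both knockout libraries were above both WT libraries, with a log2 fold change of 0.73 and an adjusted p of 0.0567. MRPS2, a small subunit protein of a family shared with bacteria, was at 87.3 and 99.3 FPKM in WT cells and 157 and 131 FPKM in ZCCHC4 KO1 cells, with an adjusted p of 0.0793. MRPL46, specific to mitochondria, was at 44.6 and 48.6 FPKM in WT cells and 77.03 and 63.9 FPKM in ZCCHC4 KO1 cells, with an adjusted p of 0.0869. In all 3 genes the groups were apart, a separation that the choice by smallest p favours. Over all tested genes 23.1% were higher without overlap. In these 3 genes ZCCHC4 KO1 replicate 1 was the highest library. The same order held for MRPL20, which binds ribosomal RNA in the large subunit, with 125 and 153 FPKM in WT cells and 222 and 188 FPKM in ZCCHC4 KO1 cells (adjusted p = 0.113, limma). MRPL12 had a log2 fold change of 0.55 and an adjusted p of 0.135.

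On the lower side, MRPL33, a small protein of the large subunit, was at 143 and 159 FPKM in WT cells and 99.5 and 96.8 FPKM in ZCCHC4 KO1 cells, with a log2 fold change of −0.61 and an adjusted p of 0.0540. MRPL15, a core protein of the large subunit, was at 66.6 and 74.7 FPKM in WT cells and 40.2 and 47.2 FPKM in ZCCHC4 KO1 cells, with a log2 fold change of −0.68 and an adjusted p of 0.0585. MRPL39, which is related in sequence to threonyl-tRNA synthetase, was at 34.0 and 32.5 FPKM in WT cells and 19.8 and 27.3 FPKM in ZCCHC4 KO1 cells, with a log2 fold change of −0.50 and an adjusted p of 0.196. The groups were apart for all 3 genes and none of them passed. Both knockout libraries were below WT cells for all 6 lower members of smallest p, a separation that this choice favours. Over all tested genes 28.5% were lower without overlap.

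Counts of direction leaned upward for small differences. Over the 77 members the log2 fold change had a median of 0.09, against −0.03 over all tested genes, and single members ran from −1.13 to 0.96. Of the members, 47 (61.0%) had a positive log2 fold change, against 46.8% of all tested genes. The 2 knockout libraries were both above the 2 WT libraries for 28 members, 36.4% against a background of 23.1%, and both below for 11 members, 14.3% against 28.5%. The median of the members moved by less than the spread between replicates, since library medians of log2(FPKM + 1) were 6.08 and 6.20 in WT cells and 6.37 and 6.15 in ZCCHC4 KO1 cells. ZCCHC4 KO1 replicate 2 lay between the 2 WT libraries. Summed FPKM of the members was 6297 and 6923 in WT cells, 1.23% and 1.29% of each table total, and 7775 and 6784 in ZCCHC4 KO1 cells, 1.38% and 1.301%. The sums of the groups overlapped, whereas the shares were higher in both knockout libraries. In bulk RNA, a change in the number of cells of a kind and a change in RNA per cell cannot be told apart.

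**Figure D2:**
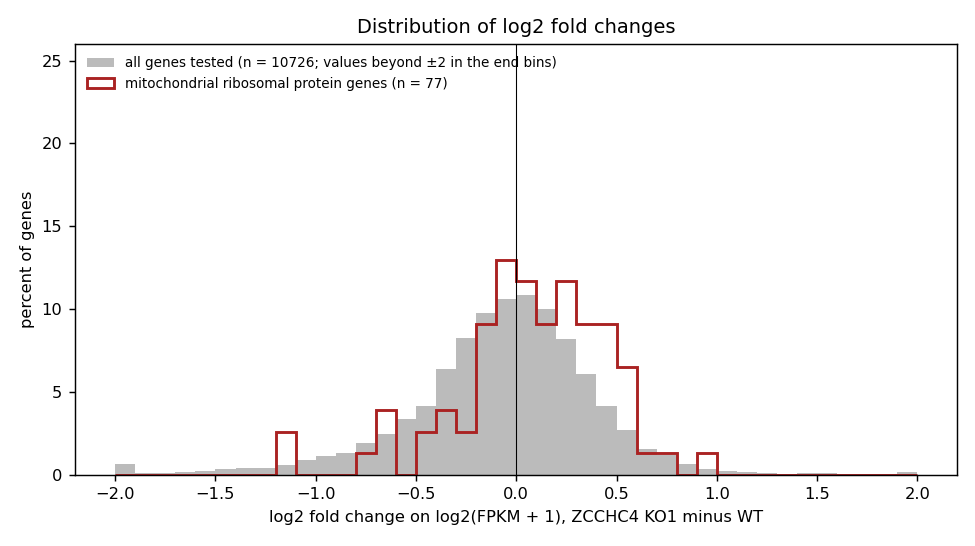
Percent of genes by log2 fold change (ZCCHC4 KO1 minus WT on log2(FPKM + 1), bins of equal width) for all 10726 tested genes (grey) and the 77 mitochondrial ribosomal protein genes (red outline). The members have a larger share than the background moderately above 0 and a smaller one moderately below it, with MRPS33 and MRPL57 forming the left bump beyond −1.

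The 2 subunits did not separate. The log2 fold changes of the 49 MRPL genes had a median of 0.09, with 29 positive, 0 called higher and 1 called lower. The 28 MRPS genes had a median of 0.09, with 18 positive, 1 called higher and 2 called lower. Names do not always follow the subunit, since MRPS30 and MRPS18A are parts of the large subunit in structures of the mitoribosome. Genes of bacterial families (48 members) had a median of 0.06 on the log2 scale with 1 called higher and 1 called lower, and the 29 members without a bacterial counterpart had a median of 0.12 with 0 called higher and 2 called lower. The 2 lower genes without a bacterial counterpart were MRPS33 and MRPL57. Over all tested genes 1.5% were called higher and 4.48% lower, and whether any of these groups differs from that was not tested.

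The 3 paralogs of the MRPS18 family occupy different places in the ribosome. MRPS18B, in the small subunit, was the most abundant, with 136 and 152 FPKM in WT cells and 145 and 135 FPKM in ZCCHC4 KO1 cells. MRPS18A, in the large subunit, was at 69.7 and 84.5 FPKM in WT cells and 90.8 and 71.7 FPKM in ZCCHC4 KO1 cells. MRPS18C, at the place of the bacterial protein S18, was lowest with 28.3 and 25.96 FPKM in WT cells and 32.5 and 32.5 FPKM in ZCCHC4 KO1 cells. The 3 genes did not overlap with each other in level in any library. Between WT and ZCCHC4 KO1 cells MRPS18A and MRPS18B overlapped, and MRPS18C was higher in both knockout libraries with a log2 fold change of 0.26 that did not pass (adjusted p = 0.343, limma).

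Differences of the members followed those of their chromosomal neighbours in several places. For each member a median was taken over the 20 tested genes closest to it on its chromosome, leaving out all members. Across the 77 members this median and the log2 fold change of the member had a Pearson correlation of 0.569 and a Spearman correlation of 0.524, and had the same sign in 50. These points share libraries, and members close to each other share neighbours. The same values were not computed for other genes, so whether the members differ from them in this was not tested. The neighbours' median was below −0.3 for 7 members and above 0.3 for 3.

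On the long arm of chromosome 2, MRPS9 lay among genes that were mostly higher, 17 of 20, with a median log2 fold change of 0.48. MRPL30 (chr2:99181184-99199561), on the same arm, was at 26.2 and 23.6 FPKM in WT cells and 27.7 and 38.7 FPKM in ZCCHC4 KO1 cells. Both knockout libraries were above WT cells, the log2 fold change of 0.38 did not pass (adjusted p = 0.318, limma), and 16 of its 20 neighbours were higher with a median of 0.43. MRPS5 (chr2:95085369-95122003), nearer to the centromere, was at 28.8 and 31.0 FPKM in WT cells and 30.2 and 32.0 FPKM in ZCCHC4 KO1 cells, which overlapped, and its neighbours had a median of 0.08. MRPS9 was further from 0 than its neighbours, and the part of the region in its difference was not tested.

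On chromosome 8 all 3 members had negative log2 fold changes. The neighbours of MRPL15 (chr8:54135241-54148514) were lower in 19 of 20 cases, with a median of −0.66 beside −0.68 for MRPL15 itself. Those of MRPS28 were lower in 18 of 20, with a median of −0.43. MRPL13 (chr8:120395437-120445150), far along the same arm, was at 39.0 and 36.8 FPKM in WT cells and 30.4 and 40.7 FPKM in ZCCHC4 KO1 cells, which overlapped, and its neighbours were evenly divided, 10 higher and 10 lower. On chromosome 21 the neighbours of MRPS6 were lower in 20 of 20 cases with a median of −0.65, beside −0.42 for MRPS6, and those of MRPL39 were lower in 18 of 20 with a median of −0.49. The log2 fold changes of MRPL15, MRPS6 and MRPL39 were thus close to or nearer 0 than those around them, while MRPS33, MRPL33 and MRPL58 had neighbours with medians of −0.01, −0.02 and 0.12.

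Replicates differed from each other along GC content, the share of G and C in the transcript. Across the 77 members the difference of WT replicate 2 minus replicate 1 had a Spearman correlation of 0.733 with GC content, and ZCCHC4 KO1 replicate 2 minus replicate 1 had one of −0.740. The same was seen over all tested genes, with 0.707 and −0.764. These are correlations across genes of the same libraries. WT replicate 2 exceeded WT replicate 1 in 60 members and ZCCHC4 KO1 replicate 1 exceeded replicate 2 in 47.

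The members with a GC content of 55% or more were 20 in number. MRPL12, MRPS2 and MRPS12, a protein of the decoding centre at 76.4 and 91.3 FPKM in WT cells and 148 and 104 FPKM in ZCCHC4 KO1 cells, were among them. The log2 fold changes of the 20 had a median of 0.33, 17 of 20 were positive, and the groups did not overlap for 10 higher and 0 lower genes. Over all tested genes of any GC content, 23.1% were higher and 28.5% lower without overlap. These shares were not computed for all tested genes of 55% or more, so whether the 20 differ from those was not tested. All 20 were higher in WT replicate 2 than in replicate 1, and 19 were higher in ZCCHC4 KO1 replicate 1 than in replicate 2. For the 57 members under 55% the median was 0.02, 30 were positive, and 18 higher and 11 lower genes did not overlap. All 4 called members were among these 57. After a trend with GC content was removed from each library, the median was 0.21 for the 20 genes, with 15 positive, and 0.09 for the 57, with 35 positive. The Spearman correlation of GC content with the log2 fold change of the members was 0.441 before and 0.256 after that removal. Over all tested genes it was 0.183 before the removal.

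Members of both directions held matches in the start-site windows, and whether matches and direction go together was not tested. Of the 21 members with YY1-type letters 11 had a positive log2 fold change, with a median of 0.04, and of the 48 without them 32 were positive, with a median of 0.145. Of the 38 with ETS-type letters 25 were positive, with a median of 0.13, and of the 31 without them 18 were positive, with a median of 0.09. MRPL46 and MRPL50 both carry YY1-type letters just after the start site, as shown above, and their log2 fold changes were 0.58 and −0.61. MRPL50 was at 21.5 and 14.6 FPKM in WT cells and 8.16 and 15.4 FPKM in ZCCHC4 KO1 cells, so its groups overlapped and its difference did not pass (adjusted p = 0.341, limma). MRPL33 and MRPL58 carry ETS-type letters at the same distance from the start site, and their log2 fold changes were −0.61 and 0.73.

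Other genes of mitochondrial translation were read beside the members, from lists of known function. Of 6 mitoribosome proteins with other names 0 were called, 4 had positive log2 fold changes and the median was 0.16. GADD45GIP1, a large subunit protein also known as a partner of GADD45 proteins, was at 233 and 277 FPKM in WT cells and 435 and 311 FPKM in ZCCHC4 KO1 cells (adjusted p = 0.195, limma). DAP3, a GTP-binding protein of the small subunit, was at 123 and 119 FPKM in WT cells and 145 and 149 FPKM in ZCCHC4 KO1 cells. AURKAIP1, also of the small subunit, was at 157 and 166 FPKM in WT cells and 221 and 167 FPKM in ZCCHC4 KO1 cells. In these 3 genes, chosen by smallest p, both knockout libraries were above WT cells and none passed the test. Of the 6 genes, 3 were higher and 1 was lower without overlap, beside 23.1% and 28.5% of all tested genes.

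The 32 genes for mitoribosome assembly and modification of its rRNA held 0 calls, with 23 positive log2 fold changes and a median of 0.18. In 18 of them both knockout libraries were above both WT libraries and in 3 they were below, beside 23.1% and 28.5% of all tested genes. PTCD1, which acts on the 16S rRNA, was at 7.83 and 8.32 FPKM in WT cells and 15.2 and 12.3 FPKM in ZCCHC4 KO1 cells (adjusted p = 0.0978, limma). DDX28, an RNA helicase of large subunit assembly, was at 9.0 and 9.97 FPKM in WT cells and 15.1 and 14.0 FPKM in ZCCHC4 KO1 cells. MRM3, a methyltransferase of the 16S rRNA, was at 27.6 and 33.2 FPKM in WT cells and 49.8 and 40.7 FPKM in ZCCHC4 KO1 cells. All 3 were apart between the groups, with log2 fold changes of 0.69, 0.57 and 0.56.

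Among 15 mitochondrial translation factors 0 were called, 10 were positive and the median was 0.05. TACO1, an activator of translation of the COX1 mRNA, was at 50.9 and 59.2 FPKM in WT cells and 103 and 77.7 FPKM in ZCCHC4 KO1 cells, with an adjusted p of 0.0875. The elongation factors TSFM and TUFM had log2 fold changes of 0.32 and 0.28 and did not pass. Of 22 mitochondrial aminoacyl-tRNA synthetases and subunits of the amidotransferase that makes glutaminyl-tRNA, 0 were called, 12 were positive and the median was 0.01. GATB, of that amidotransferase, was at 22.1 and 24.7 FPKM in WT cells and 39.8 and 34.0 FPKM in ZCCHC4 KO1 cells (adjusted p = 0.0781, limma). TARS2 had a log2 fold change of 0.48 and GARS1, which serves both cytosol and mitochondria, had one of −0.41, neither passing.

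For 23 genes of mitochondrial transcription and RNA processing 0 were called, 12 were positive and the median was 0.01, with log2 fold changes of −0.53 for FASTK, 0.40 for GTPBP3 and 0.33 for SLIRP. Of 9 tested activators of genes for mitochondrial proteins 0 were called, 7 were positive and the median was 0.42. MYC was at 167 and 169.8 FPKM in WT cells and 221 and 258 FPKM in ZCCHC4 KO1 cells, apart between the groups with an adjusted p of 0.0985. ESRRA, a nuclear receptor of energy metabolism, had a log2 fold change of 0.52 (adjusted p = 0.135, limma). PPARGC1B, a coactivator that works with it, was low, at 1.25 and 1.28 FPKM in WT cells and 1.88 and 2.37 FPKM in ZCCHC4 KO1 cells (adjusted p = 0.217, limma). Across these 6 lists limma called 0 of 106 tested genes, while 18 were higher and 3 lower at an unadjusted p below 0.05, where the shares of all tested genes were 8.96% and 13.9%.

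The cytosolic ribosome and the respiratory chain were read beside the members as other large complexes. Of 84 tested cytosolic ribosomal protein genes 0 were called by limma, 2 were higher and 2 lower at an unadjusted p below 0.05, 59 were positive and the median log2 fold change was 0.14. RPL31, also on the long arm of chromosome 2 (chr2:101002289-101019724), was at 845 and 835 FPKM in WT cells and 1426 and 1305 FPKM in ZCCHC4 KO1 cells, with an adjusted p of 0.0610. RPL7, on the chromosome of MRPL15 and MRPS28 (chr8:73290242-73294466), was at 1191 and 1122 FPKM in WT cells and 776 and 891 FPKM in ZCCHC4 KO1 cells, with an adjusted p of 0.154. Others on that chromosome went both ways without overlap and did not pass. The log2 fold change was −0.50 for RPS20, 0.52 for RPL8 and 0.35 for RPL30. RPL26L1 had a log2 fold change of 0.41 and did not pass.

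Of 77 tested nuclear genes for oxidative phosphorylation subunits 2 fell and 0 rose, where 4.48% of all tested genes fell and 1.5% rose. Of the 77, 38 were positive and the median was −0.00. The 2 that fell encode subunits of ATP synthase. ATP5F1C, the gamma subunit, was at 185 and 189 FPKM in WT cells and 99.8 and 116 FPKM in ZCCHC4 KO1 cells, with a log2 fold change of −0.79 and an adjusted p of 0.0319. ATP5PF, on chromosome 21 near MRPL39, was at 129 and 124 FPKM in WT cells and 67.5 and 83.3 FPKM in ZCCHC4 KO1 cells, with a log2 fold change of −0.75 and an adjusted p of 0.0481. ATP5F1E, the epsilon subunit, was at 378 and 365 FPKM in WT cells and 222 and 253 FPKM in ZCCHC4 KO1 cells, lower in both knockout libraries with an adjusted p of 0.0561. The difference between these families and the members was not tested.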

How the data were processed

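RNA-seq libraries of WT and ZCCHC4 KO1 HepG2 cells (2 each) were used, grouped by their titles. Alignment to GRCh38 (Bowtie2) and quantification (RSEM) were done by the authors, and FPKM is the deposited unit, with 1 column per library. Software versions, annotation and read filters are not given in the sources used here. The labels name an Illumina HiSeq and the supplement a BGISEQ-500 sequencer. FPKM values carry no depth, so no counting interval was computed.

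Symbols came from RefSeq (16384 of 16658 genes). Genes at FPKM 1 or more in at least 2 libraries (10726) were tested on log2(FPKM + 1) by limma 3.58.1 (R 4.3.3; lmFit, eBayes with a trend, Benjamini-Hochberg over all tested genes, two-sided, FDR 0.05). The script was tested on simulated data. Transcript GC content was known for 10559 tested genes (98.4%) and all 77 members. Start-site windows were read from RefSeq, GRCh38.p14. Levels and sequences were tabulated in Python 3.11.15.

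The genes named were those called, filled up to 6 per direction by smallest p, the 3 highest and 3 lowest by mean FPKM, the MRPS18 paralogs, members on chromosome 8 and on part of the long arm of chromosome 2, and the 3 genes of smallest p in each other list. MRPS6, MRPS12, MRPL50, RPS20, RPL8 and RPL30 were added after their values were seen. The members, lists, GC limit and regions were chosen with earlier results of these data known. Pairing of the replicate numbers was checked from the within-group differences of the 2 pairs. Alternatives were another pseudocount, filters, scalings, a GC correction, an untrended fit, replicate blocks, each library left out and the thresholds of the study. Oxaliplatin-treated libraries were not analysed here.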

Additional observations from a re-analysis of the deposited data

How the results depend on the processing

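The median log2 fold change of the members stayed positive, 0.06 to 0.16, under every alternative run, beside 0.09 against −0.03 over all tested genes. The gap to all tested genes narrowed to 0.08 against 0.05 without ZCCHC4 KO1 replicate 1, 0.06 against 0.02 without WT replicate 1 and 0.09 against 0.04 after quantile normalization. Against 1 higher and 3 lower members, the unfiltered table gave 0 and 1 (2.07% of all tested genes called in either direction), with 8 and 7 at an unadjusted p below 0.05 (limma). Median-ratio scaling gave 2 higher (11% of all), quantile normalization 8 and 5 (11.1%), and removal of the GC trend 13 and 6 (19.8%). The thresholds of the study, applied to the limma fit, gave 0 and 0. Leaving out 1 library gave 0 to 17 higher and 0 to 8 lower (3.45% to 14.9% of all), the lowest without WT replicate 2 and the highest without ZCCHC4 KO1 replicate 2, and a median of 0.06 to 0.14. The cause was not tested. All 4 calls were kept with a pseudocount of 0.1, a minimum FPKM of 5, each scaling, the GC removal and without either ZCCHC4 KO1 library. Without a trend MRPS28 was lost (adjusted p = 0.0513). With the replicate number as a block, 1 member was higher and 2 were lower, and MRPS28 was lost (adjusted p = 0.0693). The labels share only a number, and the within-group differences of the 2 pairs had a Pearson correlation of −0.787 over all tested genes. A block with the numbers crossed, chosen after seeing the data, called 28 higher and 12 lower members and 49.4% of all tested genes.

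Small log2 fold changes that did not pass changed sign. Quantile normalization gave −0.017 for MRPS24 and 0.012 for MRPL19, GC removal −0.015 for MRPS18A, and median-ratio scaling 0.030 for MRPS18B. With 1 library left out, MRPS24 ran from −0.126 to 0.216, MRPL1 from −0.023 to 0.577, MRPL19 from −0.401 to 0.189, MRPS18A from −0.098 to 0.238, MRPS18B from −0.120 to 0.041 and MRPL13 from −0.307 to 0.101. Count models were not run, since the values are FPKM. With 2 libraries per group and depth unknown, differences no larger than the spread between replicates could not be resolved.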

Other observations

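With the trend of GC content removed from each library, 13 members rose and 6 fell at an adjusted p below 0.05 (limma), where 19.8% of all tested genes were called in either direction. Beyond MRPS9, the higher members were MRPL58 (log2 fold change 0.72), MRPL20 (0.51), MRPS2 (0.49), MRPL11 (0.49), MRPL30 (0.48), MRPS12 (0.47), MRPL49 (0.43), MRPL12 (0.40), MRPL10 (0.34), MRPL28 (0.31), MRPS15 (0.30) and MRPS26 (0.30). Beyond MRPS33, MRPL57 and MRPS28, the lower ones were MRPL15 (−0.60), MRPL50 (−0.65) and MRPL33 (−0.51). Of the 13 higher members 5 had a GC content of 55% or more. The 13 include MRPS12 of the decoding centre, MRPL12 of the stalk and MRPL11 at its base, and MRPL11, MRPL49, MRPL10, MRPL28, MRPS15, MRPS26 and MRPL50 were named after their values were seen. On the deposited scale, of these genes MRPS9, MRPS33, MRPL57 and MRPS28 passed, and under quantile normalization MRPL58, MRPS2, MRPL20, MRPL12, MRPL33 and MRPL15 were also among those that passed.

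Chromosomes 17 and 12 are named for their one-sided signs, after the values of all chromosomes were seen. All 8 members on chromosome 17 had positive log2 fold changes with a median of 0.30, where 46.8% of all tested genes were positive. Of the 8, 5 were higher without overlap, beside 23.1% of all tested genes. Their neighbours' medians ran from −0.29 for MRPL10 to 0.19 for MRPL12. All 3 members on chromosome 12 were negative, with a median of −0.30. Their neighbours' medians ran from −0.27 for MRPS35 to −0.04 for MRPL42. MRPL51 was the highest of the 3 in level, at 218 and 222 FPKM in WT cells and 182 and 174 FPKM in ZCCHC4 KO1 cells (adjusted p = 0.218, limma). The share of positive genes over all tested genes of each chromosome was not computed.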
